A study of Mus musculus with 3 samples.

Results

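The proteasome is the barrel-shaped protease that degrades ubiquitin-tagged proteins in every cell. Its 20S core is a stack of outer alpha rings around inner beta rings, and the beta rings carry the proteolytic sites. The 19S particle sits on the ends of the core, recognises ubiquitin and unfolds the substrate with a ring of ATPases. In lymphoid tissue, and in other cells under interferon-gamma, the catalytic beta subunits Psmb5, Psmb6 and Psmb7 are replaced during assembly by Psmb8, Psmb9 and Psmb10. The resulting immunoproteasome cuts proteins into peptides that suit class I MHC molecules, and the interferon-inducible activator of Psme1 and Psme2 opens the core in the same setting.

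The genes described here are those whose symbol is Psm, a letter from a to g and a number, without a hyphen. This name rule found 50 genes among the 48568 symbols of the deposited tables, and it left out 4 hyphenated pseudogenes. Of the 50, 48 averaged 1 FPKM or more in both comparisons. FPKM counts the sequenced fragments of a gene, scaled by transcript length and by the size of the library. Psmc3ip came in by its name only: it encodes a protein that binds Psmc3 and acts in meiotic recombination, and it is no subunit. Psma8, the alpha subunit of the testis, was under the limit with 0.599 FPKM in females, 0.725 FPKM in SryHi males and 0.211 FPKM in wildtype males. Psmb11, the catalytic subunit of the thymic cortex, was listed at 0 in all 3 libraries, as was Foxn1, the factor that defines thymic epithelium.

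RNA came from whole, untreated popliteal lymphnodes of C57Bl/6 mice aged 5 months. The groups were 6 wildtype females, 3 SryHi males and 6 wildtype males, and each group was pooled into 1 library. SryHi males are the XY gonadal males of the FCG model (XY-Sry+), in which the Y chromosome lacks Sry and an autosomal transgene supplies it. Sry itself was at 20.8 FPKM in SryHi males and was listed at 0 in females and in wildtype males. A gene has 1 value per group and no replicate error, so no test was run, and a difference below is one between libraries. The SryHi pool held fewer animals and the model differs from wildtype in more than the level of Sry, which cannot be told apart here from the group itself.

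The files give FPKM and no counts. From the most frequent low product of FPKM and length, taken as 1 fragment, the libraries of females, SryHi males and wildtype males were estimated to hold 5.96e+06, 5.31e+06 and 5.96e+06 fragments, each to within a step of 0.05 on the log10 scale. Lymphnode genes were present throughout, with summed levels of 5 B cell genes of 854, 820 and 890 FPKM in females, SryHi males and wildtype males. The 6 T cell genes summed to 407, 248 and 325 FPKM in the same libraries, and the 5 neutrophil genes to 50.8, 77.4 and 318 FPKM. In a whole node, fewer cells of a type and less RNA per cell cannot be told apart.

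RefSeq promoter windows of the 3 inducible subunits, Psmb5, Psme1 and Psme2 are shown first, since the values below turn on these genes. Psmb5 is the constitutive counterpart of Psmb8, and Psme1 and Psme2 are activator genes. Psmb8 and Psmb9 lie close together on chromosome 17, among the genes of the MHC, with the peptide transporter genes Tap1 and Tap2. Psmb5, Psme1 and Psme2 lie on chromosome 14 and Psmb10 on chromosome 8. Each sequence runs from 250 bases before the RefSeq start of the gene through the first 30 bases from it. That is 280 bases in all, on build GRCm38.p6. Psme2 has 2 such windows, and only that with the higher start coordinate is shown. In the GENCODE annotation Psmb8 starts further upstream, at 34197721, as do Psme1, at 55578123, and Psmb9, on the minus strand, at 34187764. The windows of Psmb8, Psme1 and Psmb9 thus lie inside those genes, and sequence upstream of the GENCODE starts was not searched. Capitals mark matches, on either strand, to 5 motifs: GAAANNGAAA, the core of the interferon-stimulated response element; TTCNNNGAA, the gamma-activated site; TGACNNNGC, the core of the antioxidant response element; CCAAT; and GGGCGG, the GC box.
Psmb5 (chr14:54617966-54618245, minus strand): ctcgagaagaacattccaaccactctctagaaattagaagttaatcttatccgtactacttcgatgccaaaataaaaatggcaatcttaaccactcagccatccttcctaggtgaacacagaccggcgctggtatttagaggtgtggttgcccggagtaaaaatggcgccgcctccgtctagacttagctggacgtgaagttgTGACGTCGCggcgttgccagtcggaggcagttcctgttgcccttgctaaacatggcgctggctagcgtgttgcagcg
Psmb8 (chr17:34197945-34198224, plus strand): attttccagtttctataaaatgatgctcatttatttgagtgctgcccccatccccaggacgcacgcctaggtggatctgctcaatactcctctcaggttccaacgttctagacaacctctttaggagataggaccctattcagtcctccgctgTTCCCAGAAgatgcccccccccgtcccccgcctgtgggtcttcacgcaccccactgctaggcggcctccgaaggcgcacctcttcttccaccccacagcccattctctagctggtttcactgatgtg
Psmb9 (chr17:34187301-34187580, minus strand): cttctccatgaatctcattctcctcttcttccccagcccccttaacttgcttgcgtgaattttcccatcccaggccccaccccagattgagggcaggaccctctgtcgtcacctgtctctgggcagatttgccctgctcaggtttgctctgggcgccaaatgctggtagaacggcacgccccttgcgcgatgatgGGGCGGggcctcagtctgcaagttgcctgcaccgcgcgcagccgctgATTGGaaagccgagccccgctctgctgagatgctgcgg
Psmb10 (chr8:105938363-105938642, minus strand): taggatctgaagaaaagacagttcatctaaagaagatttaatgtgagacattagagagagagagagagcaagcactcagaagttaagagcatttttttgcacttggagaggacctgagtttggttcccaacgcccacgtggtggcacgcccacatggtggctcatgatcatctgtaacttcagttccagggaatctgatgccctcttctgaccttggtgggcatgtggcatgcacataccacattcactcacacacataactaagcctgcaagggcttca
Psme1 (chr14:55578244-55578523, plus strand): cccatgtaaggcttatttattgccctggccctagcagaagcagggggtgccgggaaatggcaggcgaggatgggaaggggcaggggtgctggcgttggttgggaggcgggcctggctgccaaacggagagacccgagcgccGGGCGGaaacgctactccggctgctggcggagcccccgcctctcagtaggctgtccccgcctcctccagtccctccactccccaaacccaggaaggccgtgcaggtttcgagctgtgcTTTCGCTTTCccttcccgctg
Psme2 (chr14:55591072-55591351, minus strand): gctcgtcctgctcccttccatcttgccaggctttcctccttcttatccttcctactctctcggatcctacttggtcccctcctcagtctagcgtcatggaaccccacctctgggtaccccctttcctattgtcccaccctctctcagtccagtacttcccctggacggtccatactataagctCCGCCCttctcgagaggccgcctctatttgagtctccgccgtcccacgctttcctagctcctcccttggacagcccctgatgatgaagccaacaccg

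The window of Psmb8 held a gamma-activated site at -97 to -89, counted from 0 at the start. Psme1 held the interferon element on the reverse strand at 9 to 18, and a GC box at -109 to -104. Psmb5 held the antioxidant core at -47 to -39, a motif through which Nrf1 and Nrf2 act on proteasome genes. Psmb9 held a GC box and a CCAAT box, Psme2 a GC box, and no match to these letters was found in the window of Psmb10. RefSeq windows were found for 42 of the 50 genes, 45 windows in all. A gene was counted where any of its windows matched, while the shares of all windows below are per window. The interferon element was in those of 5 (Psmb3, Psmd4, Psmd9, Psme1 and Psmg4), against 3.28% of all 32851 windows. The gamma-activated site was in those of 3 (Psmb8, Psmd2 and Psmg1), against 7.83% of all windows. The antioxidant core was in those of 6 (Psmb5, Psmb6, Psmc6, Psmd12, Psmd9 and Psme4), against 11.5%. CCAAT was found for 15 genes and the GC box for 23, against 36.1% and 34.7% of all windows. The matches describe the letters of these windows and no binding was measured.

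Of the 48 proteasome genes, 45 averaged 10 FPKM or more over SryHi and wildtype males. Per length, the 14 constitutive 20S subunits had a median of 52.0 FPKM in females, 46.9 FPKM in SryHi males and 48.9 FPKM in wildtype males. The 17 subunits of the 19S particle under the name rule had medians of 29.3, 26.8 and 30.2 FPKM in the same libraries. The 7 alpha subunits, which enter the core in equal number, were not equal in RNA. The highest was 3.82 times the lowest in females, 5.81 times in SryHi males and 3.72 times in wildtype males. The 14 constitutive core subunits include Psmb5, Psmb6 and Psmb7, whose places the inducible subunits can take. The highest of the 14 was 4.49, 11.3 and 3.72 times the lowest in the same libraries. The lowest of the 14 was Psmb5 in females and in SryHi males, and Psma5 in wildtype males.

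**Figure D1:**
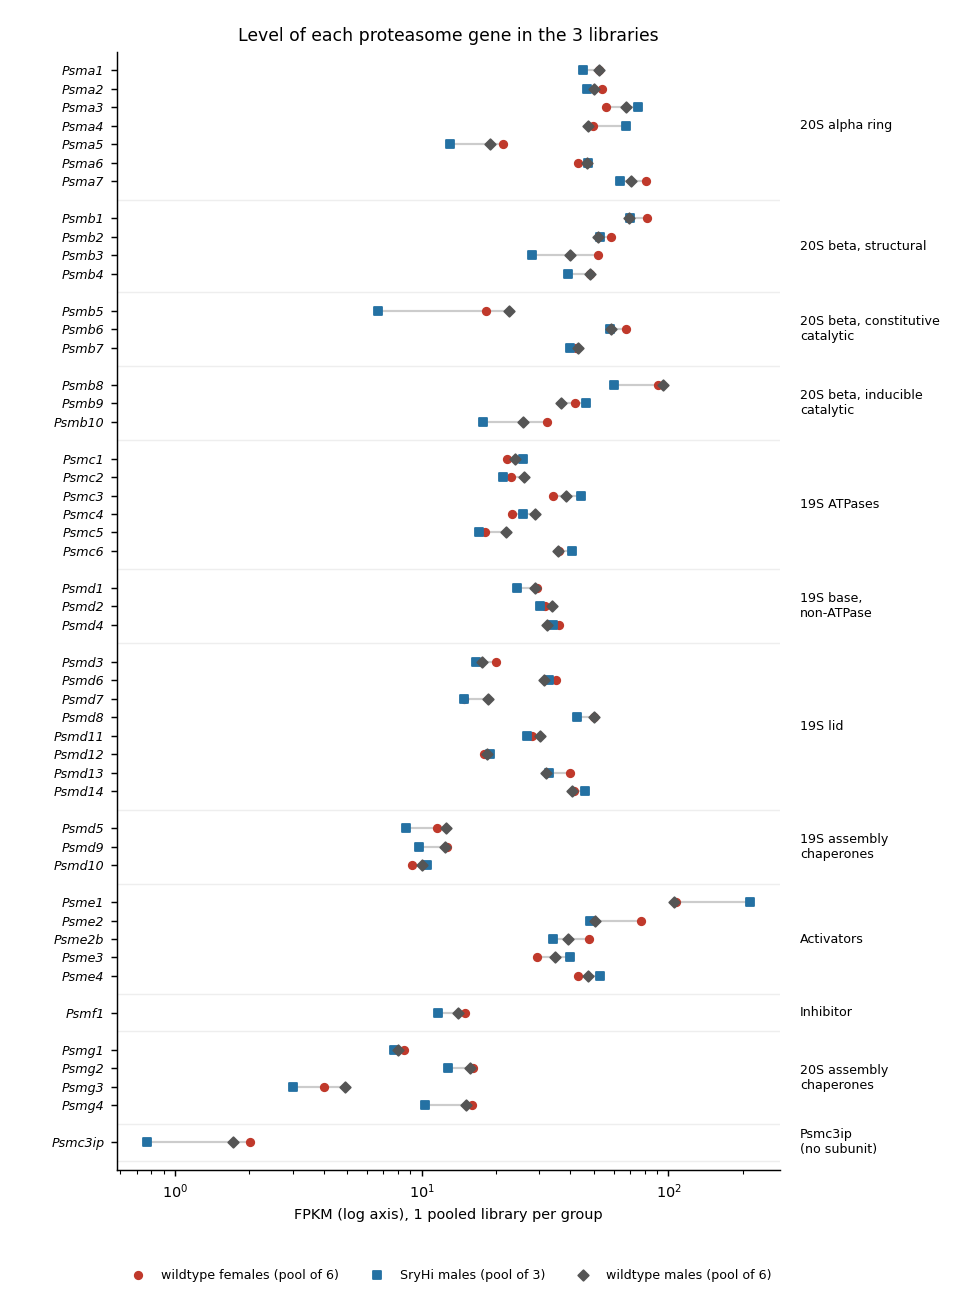
FPKM on a log axis (horizontal) of the 48 proteasome genes that averaged 1 FPKM or more, grouped by role, with 1 point per library and a grey line from the lowest to the highest. Most genes lie within a narrow range, and Psmb5, Psmc3ip and Psme1 show wide gaps, each with SryHi males at one end.

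Of the 48 genes, 22 were highest in the female library, 13 in the SryHi library and 13 in the wildtype male library. The lowest value was in the female library for 9 genes, in the SryHi library for 29 and in the wildtype male library for 10. Of all 15659 genes that averaged 1 FPKM or more, 31.1%, 40.6% and 28.3% were highest and 33.6%, 34.1% and 32.3% lowest in these libraries. The counts hold for the deposited scale alone. Ratios were taken as log2 of FPKM + 1, which understates the change of low genes. They are on the deposited scale unless stated: rescaling each library to the same total moved the median log2 ratio of all genes to -0.19, against 0.01 as deposited, for females over wildtype males, and to 1.37, against 0.04, for SryHi over wildtype males. On the rescaled scale the SryHi library was the highest for 47 of the 48 genes and for 95.8% of all genes. Signs of small ratios flip with that rescaling, so ratios are read against the median of all genes.

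Between females and wildtype males the proteasome genes stayed close together. None of the 48 was 2-fold apart, whereas 2.83% of all 15523 genes passed that limit upward and 2.77% downward. A smaller limit was set at 25% higher or 20% lower, the same distance on the log2 scale, and is meant by "the smaller limit" from here on. Past it, 2 proteasome genes (4.17%) were higher in females, against 19.3% of all genes, and 0 were lower, against 19.1%. Of the genes that averaged 10 FPKM or more, which include 44 of the proteasome genes, 16.4% were higher and 14.6% lower by the smaller limit. The median log2 ratio of the proteasome genes was 0.02, with quartiles of -0.11 and 0.16, on the deposited scale, and -0.22 on the rescaled one. The quartiles over all genes that averaged 10 FPKM or more were -0.19 and 0.22, so the proteasome genes lay closer together than genes of this level did.

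Between SryHi and wildtype males the proteasome genes spread further, as did all genes. The quartiles over all genes that averaged 10 FPKM or more were -0.24 and 0.32, against -0.19 and 0.22 for females over wildtype males. At least 2-fold apart were 2 of the 48, with Psme1 higher and Psmb5 lower in SryHi males, where 3.70% of all 15566 genes were higher and 4.14% lower. By the smaller limit, 3 genes (6.25%) were higher in SryHi males and 11 (22.9%) were lower, against 26.1% and 22.1% of all genes. Among genes that averaged 10 FPKM or more these shares were 25.2% and 19.7%, with 3 and 9 of 45 proteasome genes. The share of proteasome genes that were lower was near the background on this scale, and the share that were higher was under it. On the rescaled scale, relative to the median of all genes there, 9 were higher and 7 lower of 47, against 24.3% and 25.3% of all genes. The median log2 ratio of the 48 was -0.13 with quartiles of -0.30 and 0.06, against 0.04 over all genes, on the deposited scale; on the rescaled one it was 1.39, against 1.37, so the lower level of the group as a whole was lost there. Both comparisons use the same wildtype male library.

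**Figure D2:**
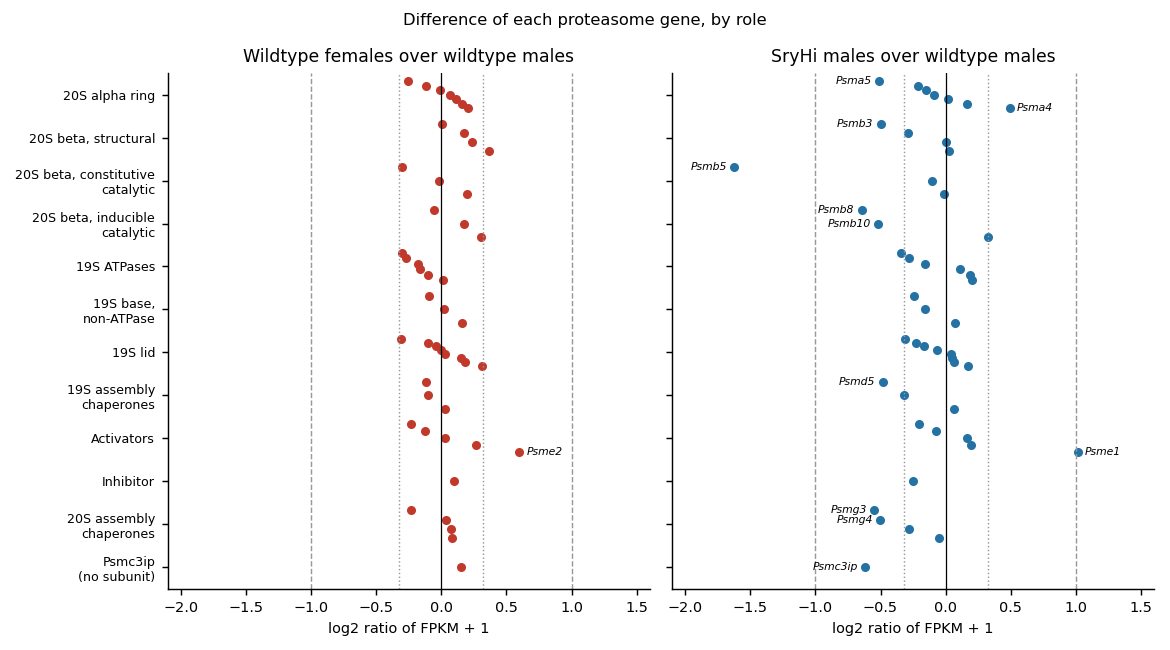
log2 ratio of FPKM + 1 (horizontal) of each of the 48 proteasome genes by role, for wildtype females over wildtype males at left and SryHi over wildtype males at right. Dotted lines mark 25% higher and 20% lower, and dashed lines 2-fold. Genes at 0.45 or more from 0 are named, which is Psme2 alone for females, and Psmb5 lies far below the rest in SryHi males.

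GC content moved with these ratios. Across 6719 coding genes of at least 10 FPKM the log2 ratio of SryHi over wildtype males had a Spearman correlation of -0.48 with the GC content of the transcripts, and across 6691 genes that of females over wildtype males one of -0.21. The proteasome genes had GC contents of 37.0% to 57.1%, with a median of 50.4% against 49.9% over all genes of the SryHi comparison, and correlations of -0.35 in SryHi males and 0.18 in females. These are correlations across genes within the same libraries, and genes are not replicates. When each ratio was set against the median of genes in the same GC decile, the median of the proteasome genes was -0.18 in SryHi males. By the smaller limit 15 genes (31.25%) were lower and 4 (8.33%) higher, against 18.8% and 19.4% of all 12004 genes treated in this way. For females over wildtype males the median was 0.01, with 4 higher and 1 lower, against 15.4% and 16.6% of all 11922 genes. The part of GC content in the differences was not tested beyond this.

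**Figure D3:**
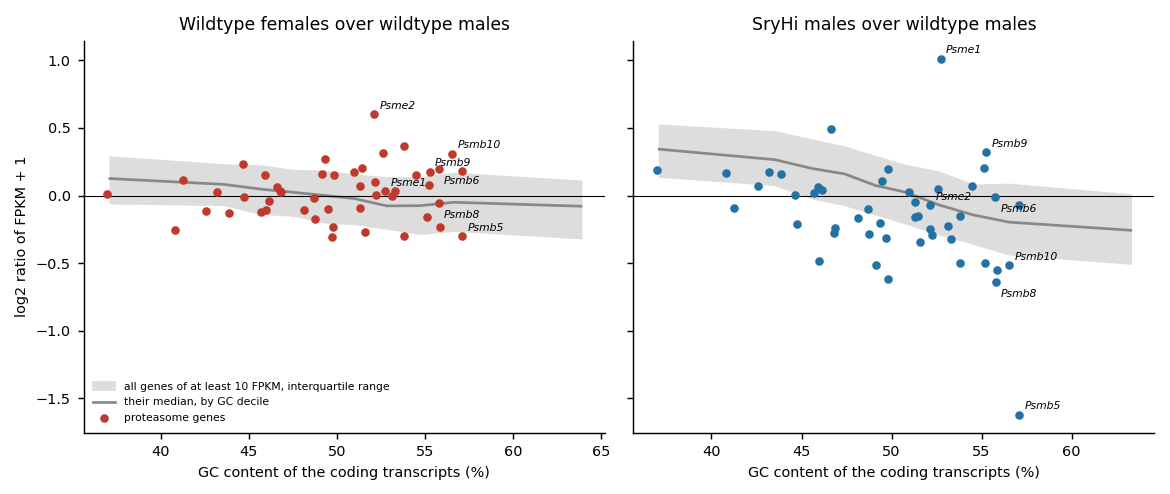
log2 ratio of FPKM + 1 (vertical) against GC content of the coding transcripts in percent (horizontal), for females over wildtype males at left and SryHi over wildtype males at right, with points for 48 proteasome genes. The grey line and band are the median and interquartile range of all genes of at least 10 FPKM by GC decile. In SryHi males the line falls with GC content, Psmb5, Psmb8 and Psmb10 lie below the band near 56%, and Psme1 and Psmb9 above it.

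The constitutive catalytic subunits did not move together. Psmb5, which carries the chymotrypsin-like site, was at 18.2 FPKM in females, 6.68 FPKM in SryHi males and 22.6 FPKM in wildtype males. Its level in SryHi males was 0.295 times that of wildtype males (log2 ratio -1.62), the lowest ratio of all proteasome genes, and 0.803 times in females (log2 ratio -0.30). At the estimated depth these values stand for about 31.9 fragments in the SryHi library and 121 in the wildtype male library, for which counting error alone is 17.7% and 9.08%. Set against genes of like GC content the log2 ratio in SryHi males was -1.42, and on the rescaled scale it was -0.08, or -1.45 from the median of all genes there. Psmb5 has a processed pseudogene, Gm3375, that matches it at 98.9% over 796 nt and was at 1.70, 1.93 and 3.02 FPKM in females, SryHi males and wildtype males. With the pseudogene added, the log2 ratio of SryHi over wildtype males was -1.47.

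Psmb6, with the caspase-like site, was at 67.1 FPKM in females, 58.0 FPKM in SryHi males and 58.5 FPKM in wildtype males. Psmb7, with the trypsin-like site, was at 42.4, 39.9 and 42.9 FPKM in these libraries. Neither passed the smaller limit in either comparison. The GC content of Psmb6 transcripts was 55.8%, close to the 57.1% of Psmb5.

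The 3 inducible catalytic subunits together were at 165 FPKM in females, 124.3 FPKM in SryHi males and 157 FPKM in wildtype males, and the 3 constitutive ones at 128, 105 and 124.1 FPKM. Psmb8, which takes the place of Psmb5, had the second highest mean of the proteasome genes over the libraries, with 91.1 FPKM in females, 60.3 FPKM in SryHi males and 94.7 FPKM in wildtype males. Its log2 ratios were -0.06 in females and -0.64 in SryHi males. Psmb9, which takes the place of Psmb6, was at 41.8 FPKM in females, 46.3 FPKM in SryHi males and 36.8 FPKM in wildtype males, with log2 ratios of 0.18 and 0.32. Psmb10, which takes the place of Psmb7, was at 32.1 FPKM in females, 17.7 FPKM in SryHi males and 25.7 FPKM in wildtype males, with log2 ratios of 0.31 and -0.52. In SryHi males the 3 inducible subunits therefore went different ways: Psmb9 was just past the smaller limit upward, and Psmb8 and Psmb10 were lower. Set against the median of all genes (0.04 on the deposited scale), Psmb9 was within the limit. GC contents of 55.3% for Psmb9, 55.8% for Psmb8 and 56.5% for Psmb10 are close to each other, and against genes of like GC content the log2 ratios of the 3 were 0.48, -0.49 and -0.31. Psmb9 overlaps Tap1 by 212 nt of exon on the other strand. Tap1, a subunit of the peptide transporter, was at 71.9, 58.2 and 57.5 FPKM in females, SryHi males and wildtype males. The libraries were stranded, but whether fragments were counted by strand is not given in the sources used here, so reads of the overlap may stand under either gene.

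The balance of inducible and constitutive subunits was then taken within each library, where a scaling common to all genes cancels. The quotient of Psmb8 to Psmb5 was 5.01 in females, 9.03 in SryHi males and 4.18 in wildtype males. The log2 difference from wildtype males was 1.11 in SryHi males and 0.26 in females. Both genes of the pair were below their wildtype male level in SryHi males, Psmb5 more so than Psmb8. The quotient of Psmb9 to Psmb6 was 0.623 in females, 0.798 in SryHi males and 0.630 in wildtype males, with log2 differences of -0.02 and 0.34. That of Psmb10 to Psmb7 was 0.757, 0.443 and 0.599 in these libraries, with log2 differences of 0.34 in females and -0.44 in SryHi males. The last of these was -0.11 after setting ratios against genes of like GC content, where that of Psmb8 to Psmb5 was 1.06. The 3 pairs thus gave no common direction in SryHi males. Summed over the pairs, the inducible subunits made up 56.4% of the catalytic subunits' FPKM in females, 54.3% in SryHi males and 55.9% in wildtype males.

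**Figure D4:**
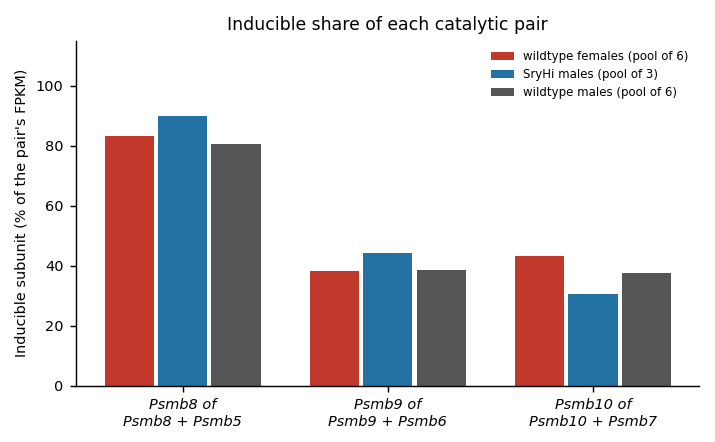
Share of the inducible subunit in the summed FPKM of its pair (vertical, percent) for the 3 catalytic pairs, 1 bar per pooled library with no error bar, since there is 1 library per group. In SryHi males the share is 90.03% for Psmb8, 44.4% for Psmb9 and 30.7% for Psmb10, against 80.7%, 38.6% and 37.5% in wildtype males, while females have 83.4%, 38.4% and 43.1%.

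Of the structural beta subunits, Psmb1 was the highest, with 81.6 FPKM in females, 69.6 FPKM in SryHi males and 69.3 FPKM in wildtype males. Psmb3 was at 51.9 FPKM in females, 28.0 FPKM in SryHi males and 40.0 FPKM in wildtype males. It was the only core subunit past the smaller limit in both comparisons, higher in females (log2 ratio 0.37) and lower in SryHi males (-0.50). Psmb3 has several pseudogenes, and the one with the most signal, Gm4950, matches it at 97.1% over 615 nt and was at 4.11, 5.04 and 5.41 FPKM in females, SryHi males and wildtype males. Psmb2 and Psmb4 were within the smaller limit in both comparisons.

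The alpha ring, which forms the gate of the core, ranged in wildtype males between 18.9 FPKM for Psma5 and 70.6 FPKM for Psma7. No alpha subunit passed the smaller limit between females and wildtype males. Psma4 was at 49.6 FPKM in females, 67.1 FPKM in SryHi males and 47.4 FPKM in wildtype males, so the SryHi library was the high one. Psma5 was at 21.3 FPKM in females, 13.0 FPKM in SryHi males and 18.9 FPKM in wildtype males, and the SryHi library was the low one. The log2 ratios of SryHi over wildtype males were 0.49 for Psma4 and -0.51 for Psma5. Psma4 shares 96.8% over 783 nt with the pseudogene Gm6542, and their sum gave 0.48. Psma3 is identical over 685 nt to the pseudogene Gm13835, which was at 34.6, 41.4 and 27.2 FPKM in females, SryHi males and wildtype males, so its own level is uncertain. Psma3 alone had 56.0, 75.4 and 67.1 FPKM in these libraries.

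Of the 17 subunits of the 19S particle that the name rule covers, 0 passed the smaller limit between females and wildtype males on the scale of FPKM + 1. Of all genes, 19.3% passed it upward and 19.1% downward. Between SryHi and wildtype males 1 passed it, against 26.1% and 22.1%. Further 19S subunits with other names are given with the related genes. The 6 ATPases of the particle, which unfold the substrate, ranged between 17.03 FPKM for Psmc5 and 44.2 FPKM for Psmc3, both in SryHi males. For females over wildtype males 5 of the 6 had ratios below 0 on the deposited scale, where 7561 of all 15523 genes did. The median of the 6 was -0.17 against 0.01 over all genes on that scale, and -0.19 from the median of all genes on the rescaled one. For SryHi over wildtype males 3 were above 0 and 3 below, where 8319 of all 15566 genes were above 0 and 7246 below. Psmc5 was the 1 past the limit, at -0.34. The 3 non-ATPase subunits of the base, of which Psmd4 is a ubiquitin receptor, were within the smaller limit in both comparisons. They ranged between 24.3 FPKM for Psmd1 in SryHi males and 35.98 FPKM for Psmd4 in females.

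On the scale of FPKM + 1, none of the 8 lid subunits under the name rule passed the smaller limit in either comparison. Without the added 1, Psmd13 was 1.252 times wildtype males in females, just past the limit. Psmd7 was then 0.799 times wildtype males in females and 0.795 times in SryHi males, also just past it. Psmd8 had the highest mean over the libraries, with 49.9 FPKM in females, 42.6 FPKM in SryHi males and 49.9 FPKM in wildtype males. Psmd7 had the lowest mean, with 14.9, 14.8 and 18.6 FPKM. Psmd14, the deubiquitinase of the lid, was at 41.3, 45.9 and 40.5 FPKM. With the added 1, Psmd13 came nearest to the limit in females, with 39.9 FPKM, against 31.9 FPKM in wildtype males. Its exons overlap those of Sirt3 on the other strand by 329 nt.

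The activators held the largest differences between the groups in the upward direction. Psme1, the alpha subunit of the interferon-inducible PA28 ring, was the most abundant proteasome gene in each library, with 108 FPKM in females, 214 FPKM in SryHi males and 105 FPKM in wildtype males. The SryHi library stood alone, 2.03 times wildtype males (log2 ratio 1.01), while females were 1.02 times wildtype males. At the estimated depth the SryHi value stands for about 1262 fragments, with a counting error of 2.82%. Against genes of like GC content the log2 ratio was 1.12, and it was 1.27 from the median of all genes on the rescaled scale.

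Psme2, which encodes the beta subunit of the same ring, did not follow it. Its levels were 77.1 FPKM in females, 48.1 FPKM in SryHi males and 50.6 FPKM in wildtype males. In females this was the largest ratio of all proteasome genes (log2 ratio 0.60), and in SryHi males the ratio was -0.07. Psme2b, which is 99.4% identical to Psme2 over 794 nt, was at 47.5, 34.0 and 39.3 FPKM in females, SryHi males and wildtype males, so how fragments were divided between the genes is uncertain. Their sum was 124.6 FPKM in females, 82.1 FPKM in SryHi males and 89.9 FPKM in wildtype males, with log2 ratios of 0.47 and -0.13. The quotient of Psme1 to the sum was 0.864 in females, 2.60 in SryHi males and 1.17 in wildtype males. Relative to wildtype males, the balance of the ring's genes thus leaned to Psme2 in females and to Psme1 in SryHi males.

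Psme3, the nuclear activator that is not interferon-inducible, was at 29.2 FPKM in females, 39.8 FPKM in SryHi males and 34.6 FPKM in wildtype males. Psme4, which encodes PA200, was at 43.0, 52.7 and 47.0 FPKM. Psmf1, an inhibitor of the core, was at 15.04, 11.6 and 13.99 FPKM. All of these were within the smaller limit in both comparisons.

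The chaperones that assemble the particle were at low levels. The 20S chaperones Psmg1 to Psmg4 were between 3.01 FPKM and 16.1 FPKM, and the 4 were within the smaller limit between females and wildtype males. In SryHi males all 4 had ratios below 0 on the deposited scale, where 7246 of all 15566 genes did. The median of the 4 was -0.39 against 0.04 over all genes on that scale, and -0.31 from that of all genes on the rescaled one. By the smaller limit only Psmg3 and Psmg4 were lower. Psmg1 was at 8.45 FPKM in females, 7.69 FPKM in SryHi males and 7.99 FPKM in wildtype males, with a log2 ratio of -0.05 in SryHi males. Psmg2 was at 16.1 FPKM in females, 12.8 FPKM in SryHi males and 15.7 FPKM in wildtype males, with a log2 ratio of -0.28 in SryHi males. Psmg3 was at 4.003 FPKM in females, 3.01 FPKM in SryHi males and 4.88 FPKM in wildtype males, and Psmg4 at 15.98, 10.3 and 15.1 FPKM. Psmg3 stands for only about 14.1 fragments in the SryHi library, for which counting error is 26.6%. Of the chaperones of the 19S base, Psmd5 was at 11.5 FPKM in females, 8.65 FPKM in SryHi males and 12.5 FPKM in wildtype males. Psmd9 was at 12.7, 9.75 and 12.4 FPKM, and Psmd10 at 9.15, 10.5 and 10.01 FPKM. Psmc3ip was at 2.02, 0.771 and 1.72 FPKM, which is about 5.29 fragments in the SryHi library, and it overlaps Mlx by 385 nt of exon on the other strand.

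Further proteasome genes outside the name rule were read from a list of 13, of which 10 were found under these symbols. For SryHi over wildtype males 3 of the 10 were higher and 2 lower by the smaller limit, against 26.1% and 22.1% of all genes, with a median log2 ratio of 0.02. Shfm1, the smallest subunit of the 19S lid, had the largest ratio (1.02), with 39.5 FPKM in females, 66.2 FPKM in SryHi males and 32.1 FPKM in wildtype males. Adrm1, a ubiquitin receptor of the base, had the smallest ratio (-0.43), with 21.9, 18.2 and 24.8 FPKM. Pomp, the maturation protein of the 20S core, was at 42.2, 60.2 and 35.3 FPKM, so the SryHi library was the high one. Nfe2l1 encodes Nrf1, which raises proteasome genes when degradation is blocked. It was at 29.9 FPKM in females, 34.0 FPKM in SryHi males and 46.0 FPKM in wildtype males, the smallest ratio of the list in females (-0.61).

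Genes that load the peptides onto class I molecules gave a median of -0.20 for females and 0.04 for SryHi males over wildtype males, from 12 genes. In females 0 were higher and 3 lower by the smaller limit, against 19.3% and 19.1% of all genes, with Tap1 (0.32) and Calr (-0.70) at the ends. In SryHi males 1 was higher and 0 lower, against 26.1% and 22.1%. That gene was B2m, the light chain of class I molecules, with 2033 FPKM in females, 3959 FPKM in SryHi males and 1712 FPKM in wildtype males. B2m, at 41.2% GC, and Psme1, at 52.7%, were the genes of both lists at least 2-fold higher in SryHi males. The log2 ratio of B2m was 1.21, where genes of at least 10 FPKM in its GC decile had a median of 0.34. B2m thus stood less far above genes of like GC content than its ratio shows, while Psme1 was at 1.12 against such genes.

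Of 32 interferon response genes, 15 were higher and 3 lower in SryHi males by the smaller limit, with a median log2 ratio of 0.26, against 26.1% and 22.1% of all genes and a median of 0.04. Ifit3 had the largest ratio (1.43), with 2.48 FPKM in females, 14.4 FPKM in SryHi males and 4.72 FPKM in wildtype males. Cxcl10 had the smallest (-0.65). Irf1, which acts on immunoproteasome promoters, was at 63.1 FPKM in females, 49.0 FPKM in SryHi males and 46.9 FPKM in wildtype males. In females 7 of the 32 were higher and 11 lower, against 19.3% and 19.1% of all genes, with a median of 0.01, and Cxcl9 (1.28) and Irf7 (-0.94) were at the ends.

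Ubiquitin and its conjugation machinery, 16 genes, had medians of -0.14 in females and -0.10 in SryHi males. In SryHi males 4 were higher and 5 lower by the smaller limit, against 26.1% and 22.1% of all genes. The polyubiquitin gene Ubb had the smallest ratio there (-1.34), with 68.4 FPKM in females, 31.5 FPKM in SryHi males and 81.1 FPKM in wildtype males. Ube2d3, a conjugating enzyme, had the largest (0.55). In females 1 gene was higher and 4 lower, against 19.3% and 19.1%, with Rps27a, a fusion of ubiquitin and a ribosomal protein, at 0.62 and Rad23b, a shuttle to the proteasome, at -0.58.

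**Figure D5:**
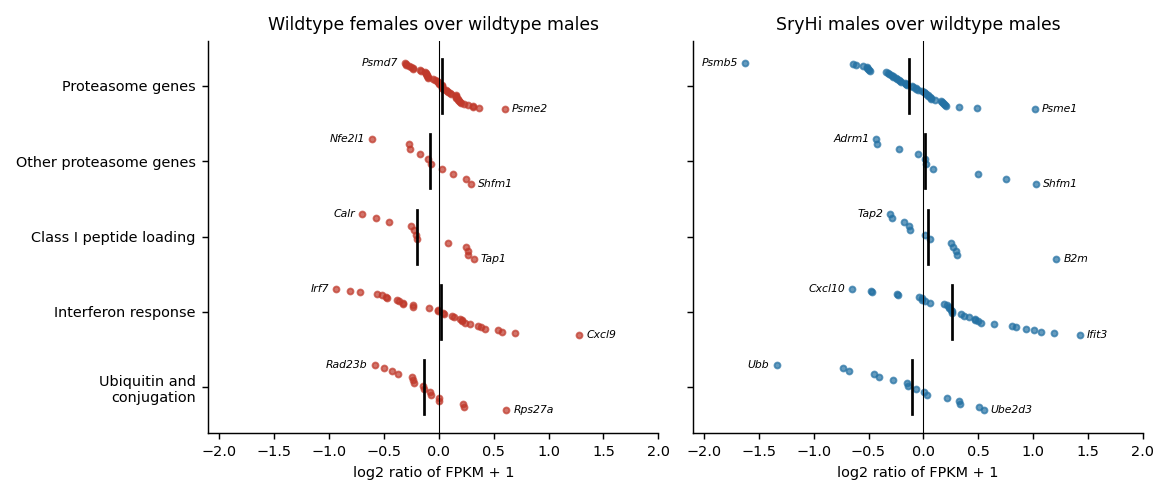
log2 ratio of FPKM + 1 (horizontal) of the 48 proteasome genes and of 4 lists of related genes, with 1 point per gene and a black bar at the median, for females over wildtype males at left and SryHi over wildtype males at right. The genes at the ends of each list are named, with Psme1 and Psmb5 for the proteasome genes in SryHi males and Psme2 and Psmd7 in females.

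On the deposited scale, the 6 T cell genes were lower in SryHi males than in wildtype males (median log2 ratio -0.48). By the smaller limit 4 of the 6 were lower there, against 22.1% of all genes. In females the 6 were higher (median 0.36), with 4 past the limit, against 19.3% of all genes. On the rescaled scale the medians were -0.26 in SryHi males and 0.28 in females from that of all genes. The 5 dendritic cell genes, from cells that are rich in immunoproteasome, had medians of 0.34 in SryHi males and -0.04 in females. The 5 macrophage genes summed to 187, 360 and 351 FPKM in females, SryHi males and wildtype males. Their median log2 ratios were -0.69 in females and -0.02 in SryHi males, where 2 were above 0 and 3 below. The 3 fat genes summed to 52.2, 128 and 53.3 FPKM in females, SryHi males and wildtype males. The 4 plasma cell genes summed to 284, 238 and 392.3 FPKM in the same libraries, with median log2 ratios of -0.43 in females and -0.63 in SryHi males. By the smaller limit 3 of the 4 were lower in each comparison, against 19.1% of all genes in females and 22.1% in SryHi males. The 5 stroma genes summed to 206, 283 and 295 FPKM, with median log2 ratios of -0.61 in females and -0.31 in SryHi males. The 4 endothelial genes summed to 159, 228 and 194 FPKM, with medians of -0.62 in females and 0.27 in SryHi males. Their part in the differences of the proteasome genes was not tested.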

How the data were processed

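Pooled RNA of popliteal lymphnodes was sequenced as 1 library per group. The authors used HiSat2, Samtools, Cufflinks and Cuffdiff on mm10, whose versions are not given in the sources used here, and deposited FPKM in 2 tables that share the wildtype male library. These hold 48808 entries each, and the male values differ between tables for 2 entries, none of a proteasome gene. Their columns of fold change, test statistic, p-value, q-value and call hold the authors' own comparisons and were not used.

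Entries of a symbol were summed (231 symbols have several). Log2 ratios of FPKM + 1 were kept where the pair of libraries averaged 1 FPKM or more; quotients used FPKM without a pseudocount. Limits were 2-fold, as in the study, and 25% higher or 20% lower. With 1 library per group, no test was run. The members, lists and limits were chosen with earlier results of these data known. Genes named with values were the catalytic, activator and inhibitor genes, up to 10 past the smaller limit in each direction, the ends of each class or list, and, chosen after their values were seen, Psmd13, Psmd14, Psma3, Pomp, Nfe2l1 and Irf1.

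Fragments per gene were estimated from 1-transcript genes of 3000 to 8000 nt and the longest coding transcript of GENCODE M21, which also gave GC content and overlaps; Shfm1 is listed there under another symbol. Near-identical copies (at least 90% over 300 nt) were found with BLAST+ 2.17.0. Promoters are RefSeq's. Ratios were computed with Python 3.11.15 and pandas 2.3.3. The 2-fold call was tested on simulated data with larger changes and counting error alone, and the smaller limit was not tested in this way.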

Additional observations from a re-analysis of the deposited data

How the results depend on the processing

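Alternatives were a pseudocount of 0.1 FPKM, no filter, a mean of at least 10 FPKM, rescaling to a common total (TPM), centring on the median of all genes, the highest entry of a symbol, entries of every status and, for quotients, a pseudocount of 1 FPKM. Setting ratios against genes of like GC content, and leaving out Psme2b and Psmc3ip, were chosen after seeing the data. No entry had a failed status, and no member has several entries, so those settings changed nothing, and leaving out Psme2b and Psmc3ip or the filter moved no count by over 1.5 times and no median by 0.1. A pseudocount of 0.1 gave 1 gene lower in females instead of 0. Centring left 1 gene 2-fold apart in SryHi males instead of 2, since Psme1 is close to the limit. By the smaller limit it left 2 genes higher there instead of 3, since Psmb9 fell within it, and 13 lower instead of 11. With a pseudocount in the quotient the Psmb8 to Psmb5 difference in SryHi males was 0.98 in place of 1.11. Setting ratios against genes of like GC content gave 4 genes higher and 1 lower in females, against 15.4% and 16.6% of all genes. It gave a difference of -0.11 for Psmb10 to Psmb7 in SryHi males in place of -0.44.

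Rescaling changed the most. The median turned to -0.22 in females, with 0 genes higher and 10 lower by the smaller limit, and to 1.39 in SryHi males, with 46 higher, 0 lower and 41 at least 2-fold apart. The sum of FPKM rests on a few short genes: 10 symbols hold 85.1% of it in females, 63.0% in SryHi males and 85.8% in wildtype males. Relative to the shift of all genes, 1 gene was higher and 0 lower in females, and 9 were higher, 7 lower and 2 at least 2-fold apart in SryHi males. The limit of all values is that 1 pool per group gives no error between animals, and that genes under about 30 fragments, such as Psmg3 and Psmc3ip, are imprecise.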
